A study of Arabidopsis thaliana with 6 samples.

Results

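A set of 115 Arabidopsis thaliana genes was expressed in both sorted cell populations and stood moderately higher in the YFP-positive cells, out of 16550 genes measured under a name. A gene entered the set when all 3 YFP-negative values lay above 4 on the log2 scale, and when the YFP-positive value exceeded the YFP-negative value by at least 1 and by less than 4 in each of the 3 same-numbered pairs of arrays. A log2 difference of 1 is 2-fold and one of 4 is 16-fold. The bounds left 118 genes, of which SIM, RR16 and BRH1 were set aside by name. AMY1 and AT3G01950 were also to be set aside and did not meet the bounds. AMY1 differed by 5.17 in pair 1 and 4.26 in pair 3, and AT3G01950 by 5.57 and 5.08. The YFP-negative replicate 1 value of AMY1, 3.75, was also not above 4. Their mean differences were 4.43 and 4.78. Since the members were chosen by these differences, the levels and differences below describe them and test nothing about them.

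The cells came from cotyledons of 6-day-old SEOR1pro::SEOR1-YFP seedlings grown in liquid MS medium at 22 °C under continuous light. Both groups had the same genotype and the same culture, 72 hours with 3 added compounds, and no uncultured sample was analysed here. These were 1.25 mg/L of the auxin 2,4-D, 0.25 mg/L of the cytokinin kinetin, and 10 µM bikinin, which blocks GSK3-like kinases of the brassinosteroid pathway. In this culture system, called VISUAL, mesophyll cells become vascular cells. Protoplasts were sorted by the YFP fusion, which is driven by the promoter of a sieve element protein gene, into YFP-positive cells, called phloem in the series' design text, and YFP-negative cells, called non-phloem there, with 3 arrays each. The comparison asks which transcripts part these populations. The YFP-negative gate holds every cell without the signal, so it can mix several cell types.

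Phloem carries sugars and signals through sieve elements, which lose their nucleus and most organelles as they mature and are kept alive by companion cells beside them. Their differentiation needs a shift in cell wall structure, protein turnover and membrane traffic, and phloem cells also send peptides to their neighbours. CLE41 makes the best known of these: the TDIF peptide is released from phloem, bound by the receptor kinase TDR (PXY) in the procambium, and there promotes division and holds back xylem formation. A transcript that is present in both populations and higher in one can be a difference per cell or a difference in how many cells of a type each gate held. In sorted bulk samples these cannot be told apart.

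Arrays correlated across genes at 0.949 to 0.958 within the YFP-positive group and at 0.894 to 0.926 within the YFP-negative group. Array medians over all probe sets ran from 2.1 to 2.92 on the log2 scale and were lowest in both arrays of replicate 2. In 77 of the 115 members the lowest YFP-negative value was that of replicate 2, a share of 67.0% against 56.6% of all genes above the floor. The lowest YFP-positive value was that of replicate 2 in 89 members, 77.4% against 65.2% of all genes above the floor. In 89 members the highest YFP-positive value was that of replicate 3, for which the share over all genes was not counted. The part of this array-wide shift in the spread of each member was not tested. Differences within pairs are therefore given throughout, and without pair 2 the median of the members' mean differences was 1.92, against 1.85 with it. The labels do not state whether the replicates were separate cultures, and the spread between them may be technical.

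The members' differences clustered near the lower end of the allowed range. The mean of the 3 pair differences ran from 1.07 for AT3G25597 to 3.34 for PM-ANT, with a median of 1.85, which is 3.6-fold, and quartiles of 1.55 and 2.27. The median over all 16550 genes was -0.04. Mean differences from 1 to below 1.5 were found in 24 members, from 1.5 to below 2 in 44, from 2 to below 2.5 in 32, from 2.5 to below 3 in 12, and of 3 or more in 3. In 17 members every pair reached 2, and in 38 every pair stayed below 2. The median member difference was 1.70 in pair 1, 1.73 in pair 2 and 2.00 in pair 3, and 53 of the members had their largest difference in pair 3. Across the 115 members the pair differences correlated at 0.33 (pairs 1 and 2), 0.42 (pairs 1 and 3) and 0.28 (pairs 2 and 3), over a range that the bounds cut on both sides.

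The name of the set, expressed in both, rests on the floor of 4. Member means in YFP-negative cells ran from 4.65 (AT3G14360) to 9.30 (AT1G62790), with a median of 6.35, and stood at percentiles 67.5 to 97.2 of all genes. In YFP-positive cells the means ran from 6.29 (GLR3.3) to 10.88 (AT5G04080), with a median of 8.40, at percentiles 79.4 to 99.6. The floor is a level on the deposited scale and no call of detection, since background signal was not analysed here. Members with higher YFP-negative means tended to have smaller differences, with a correlation of -0.31 across the 115 members, a description in which both measures contain the YFP-negative values.

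**Figure D1:**
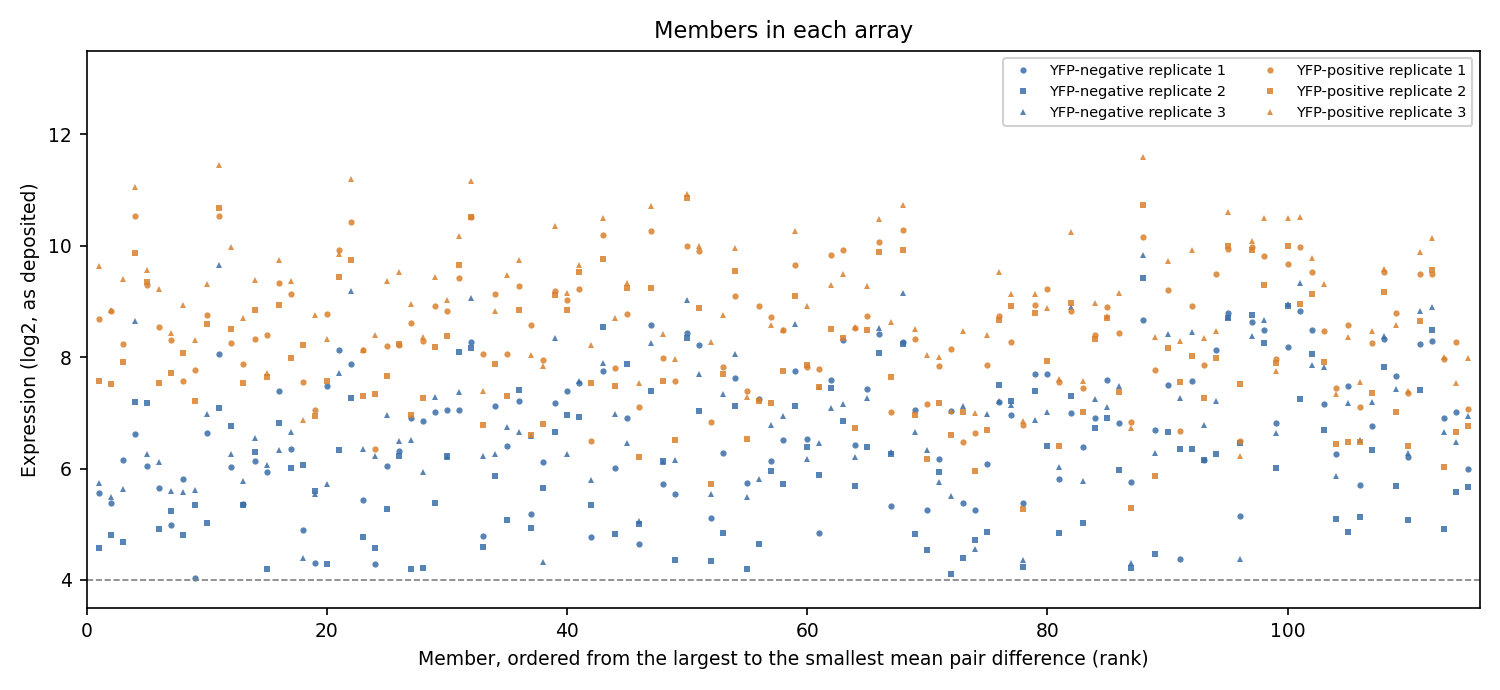
Expression on the log2 scale of each of the 115 members in the 3 YFP-negative arrays (blue) and the 3 YFP-positive arrays (orange), ordered by mean pair difference; the marker shape gives the replicate number and the dashed line the floor of 4. The blue and orange points part at the left, where mean differences reach 3.34, and interleave for many members toward the right, where they fall to 1.07.

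**Figure D2:**
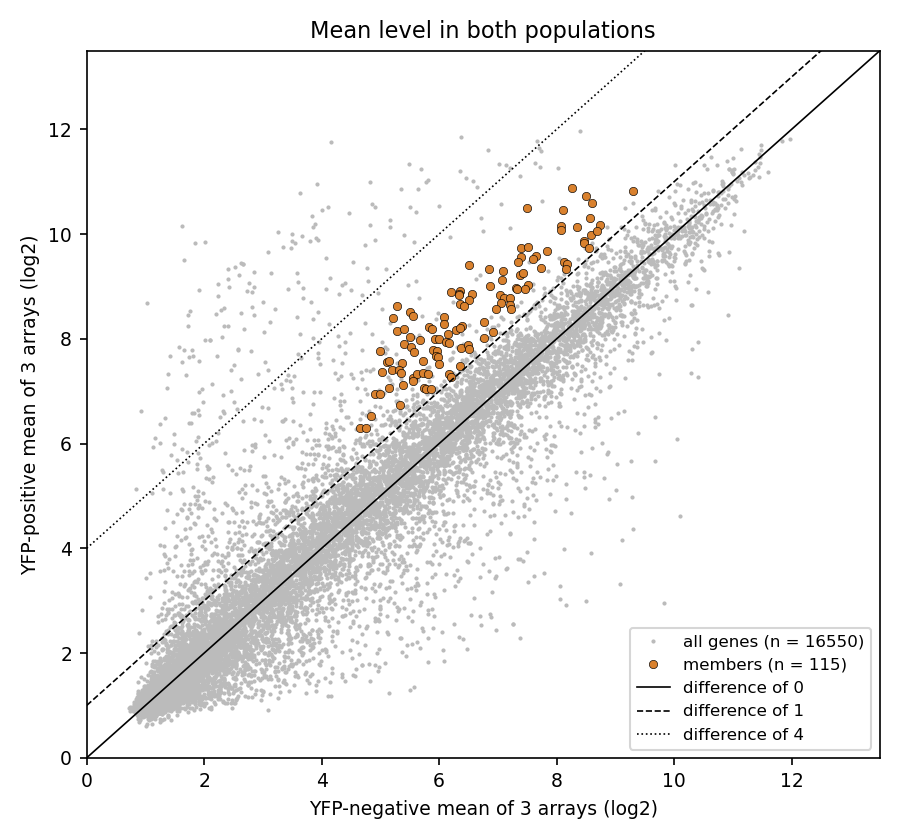
Mean of 3 YFP-positive arrays against mean of 3 YFP-negative arrays, both on the log2 scale, for all 16550 genes (grey) and the 115 members (orange), with lines at differences of 0, 1 and 4. The members lie between the lines of 1 and 4, at a median difference of 1.85, and to the right of 4 on the horizontal axis.

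In 91 of the 115 members every YFP-positive value lay above every YFP-negative value, against 4.96% of all genes; the bounds on the pairs favour this, and nothing is read from it. In the other 24 the groups overlapped, because arrays of different numbers differed by more than the populations did within a pair. In limma, fitted over all genes as YFP-positive minus YFP-negative, 7 members passed an adjusted p of 0.05, where 0.858% of all 16550 genes were called higher. They were AT4G19060, AT3G06270, AT1G32860, AT1G31300, AT3G27050, AT1G07380 and AT2G38550. With the replicate number as a block 6 members passed, where 0.495% of all genes were called higher. These 6 were AT5G20580, AT3G54040, AT1G18180, AT3G27050, AT1G53035 and PM-ANT, and only AT3G27050 passed in both fits. AT4G19060, AT1G32860 and AT1G07380 just missed the threshold in limma with the block, at adjusted p of 0.0504, 0.0504 and 0.0505. Because the rule used this contrast, these calls are given as a description. The count was 0 without YFP-negative replicate 1 or 3 or YFP-positive replicate 1 or 3, 2 when replicate 2 of the YFP-negative arrays was left out and 3 when that of the YFP-positive arrays was. Of all 16550 genes, 151 and 91 were called higher without YFP-negative and without YFP-positive replicate 2. In the settings with no member called, 37 to 86 of all 16550 genes were called higher. In the 4 settings with a count of 0, limma gave 74 to 101 members and 915 to 1582 of all 16550 genes an unadjusted p under 0.05, and with all arrays 100 members and 1318 genes.

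Only 13 members carry a gene symbol here, and 102 are known by their locus tag. For 67 members the kind of protein encoded is given below from general knowledge of Arabidopsis genes; this grouping was made by hand with the members in view, serves to order the account, and is no enrichment. The other 48 were given no kind of protein, though a protein family is named for a few of them.

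Among the signalling peptides and channels, CLE41 was the member with the best known place in vascular tissue. In YFP-negative cells CLE41 stood at 7.62, 7.12 and 8.06 in replicates 1 to 3, and in YFP-positive cells at 9.09, 9.54 and 9.96. All YFP-positive arrays exceeded all YFP-negative arrays, the pair difference being largest in replicate 2, and its YFP-negative mean already lay at percentile 89.8 of all genes. The mean pair difference was 1.93 ± 0.47 (SD, n = 3), or 3.81-fold. RALFL22, which encodes a peptide of the rapid alkalinization factor family, stood at 5.72, 6.13 and 6.12 against 7.98, 7.58 and 8.41. Its groups did not overlap either, and its mean pair difference was 2.00 ± 0.47 (SD, n = 3). GLR3.3, a glutamate receptor-like channel known for carrying wound signals along the phloem, stood at 5.75, 4.22 and 4.30 in YFP-negative cells and at 6.83, 5.30 and 6.73 in YFP-positive cells. YFP-positive replicate 2 lay below YFP-negative replicate 1, so the groups overlapped although each pair differed by at least 1.08. It was the dimmest member in YFP-positive cells.

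The 8 members that encode other signalling proteins had mean differences from 1.18 to 2.90. AT3G06270, a protein phosphatase of the 2C type, stood at 6.05, 7.17 and 6.27 against 9.29, 9.34 and 9.57, so its YFP-positive values lay within 0.28 of each other while the YFP-negative values spread more. Its mean pair difference was 2.90 ± 0.64 (SD, n = 3). The small GTPase gene ARLA1A, of the ADP-ribosylation factor-like group, stood at 4.03, 5.34 and 5.61 against 7.77, 7.21 and 8.31. Its YFP-negative replicate 1 value was the member value closest to the floor, and pair 1 gave its largest difference, 3.74. AT3G56760, a calcium-dependent protein kinase-related kinase, AT1G10900, a phosphatidylinositol phosphate 5-kinase, and AT3G03610, of the ELMO family that takes part in GTPase signalling in animals, had mean differences of 2.30, 2.1 and 2.19.

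The protein kinase gene AT4G13000, of the AGC group, stood at 4.85, 5.88 and 6.46 in YFP-negative cells and at 7.78, 7.46 and 7.47 in YFP-positive cells. Its YFP-positive values were almost level, whereas the pair differences went from 2.93 in pair 1 to 1.01 in pair 3. MOB1-like encodes a homologue of the MOB1 kinase activator of the Hippo pathway known from animals. It stood at 5.15, 6.46 and 4.37 against 6.50, 7.51 and 6.22, and it was 1 of only 2 members whose highest YFP-positive value was in replicate 2. AT1G33970, a GTPase of the AIG1 family, stood at 8.29, 8.48 and 8.90 against 9.49, 9.57 and 10.14, without overlap and with near equal differences of 1.2, 1.09 and 1.24.

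Members of the ubiquitin system, which marks proteins for turnover, numbered 13, with mean differences from 1.25 to 2.16 and a median of 1.63. Their median YFP-negative mean was 7.40, against 6.35 for all members. The groups did not overlap in 12 of the 13, where the share was 79.1% of all members and 4.96% of all genes, and the bounds favour this. UBC27, a ubiquitin-conjugating enzyme, stood at 8.63, 8.75 and 8.38 against 9.97, 9.93 and 10.08. The replicates lay close together in both populations, and the mean pair difference was 1.41 ± 0.26 (SD, n = 3). SLY1, the F-box protein that targets DELLA repressors of gibberellin response, stood at 7.19, 7.50 and 7.22 against 8.73, 8.67 and 9.52. Its YFP-negative values were within 0.32 of each other, and pair 3 gave the largest difference, 2.30. XERICO, a RING-H2 protein that raises abscisic acid levels when overproduced, stood at 5.81, 4.84 and 6.03 against 7.55, 6.41 and 7.61. Both of its replicate 2 values were low, so that its pair differences of 1.74, 1.57 and 1.58 hardly varied.

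Other ubiquitin ligases in the set were the RING proteins AT4G00305, AT4G17245, AT5G24870 and AT1G13195, at mean differences of 2.09, 1.94, 1.64 and 1.44, and the SINA-type ligase AT4G27880, at 1.95. AT1G13195 stood at 8.79, 8.70 and 8.72 against 9.94, 10.00 and 10.60. Among the brightest 8 members in YFP-positive cells it was the one with the least spread in YFP-negative cells, an SD of 0.05. The F-box genes AT2G32560, AT1G11270 and AT4G18380 had mean differences of 2.16, 1.5 and 1.34. AT4G38930, of the UFD1 family that works with a segregase on ubiquitinated proteins, stood at 8.32, 7.83 and 8.38 against 9.53, 9.17 and 9.58. Its pair differences of 1.2, 1.34 and 1.2 were among the 5 narrowest ranges of the set. AT4G19006, a lid subunit of the proteasome, had a mean difference of 1.59.

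**Figure D3:**
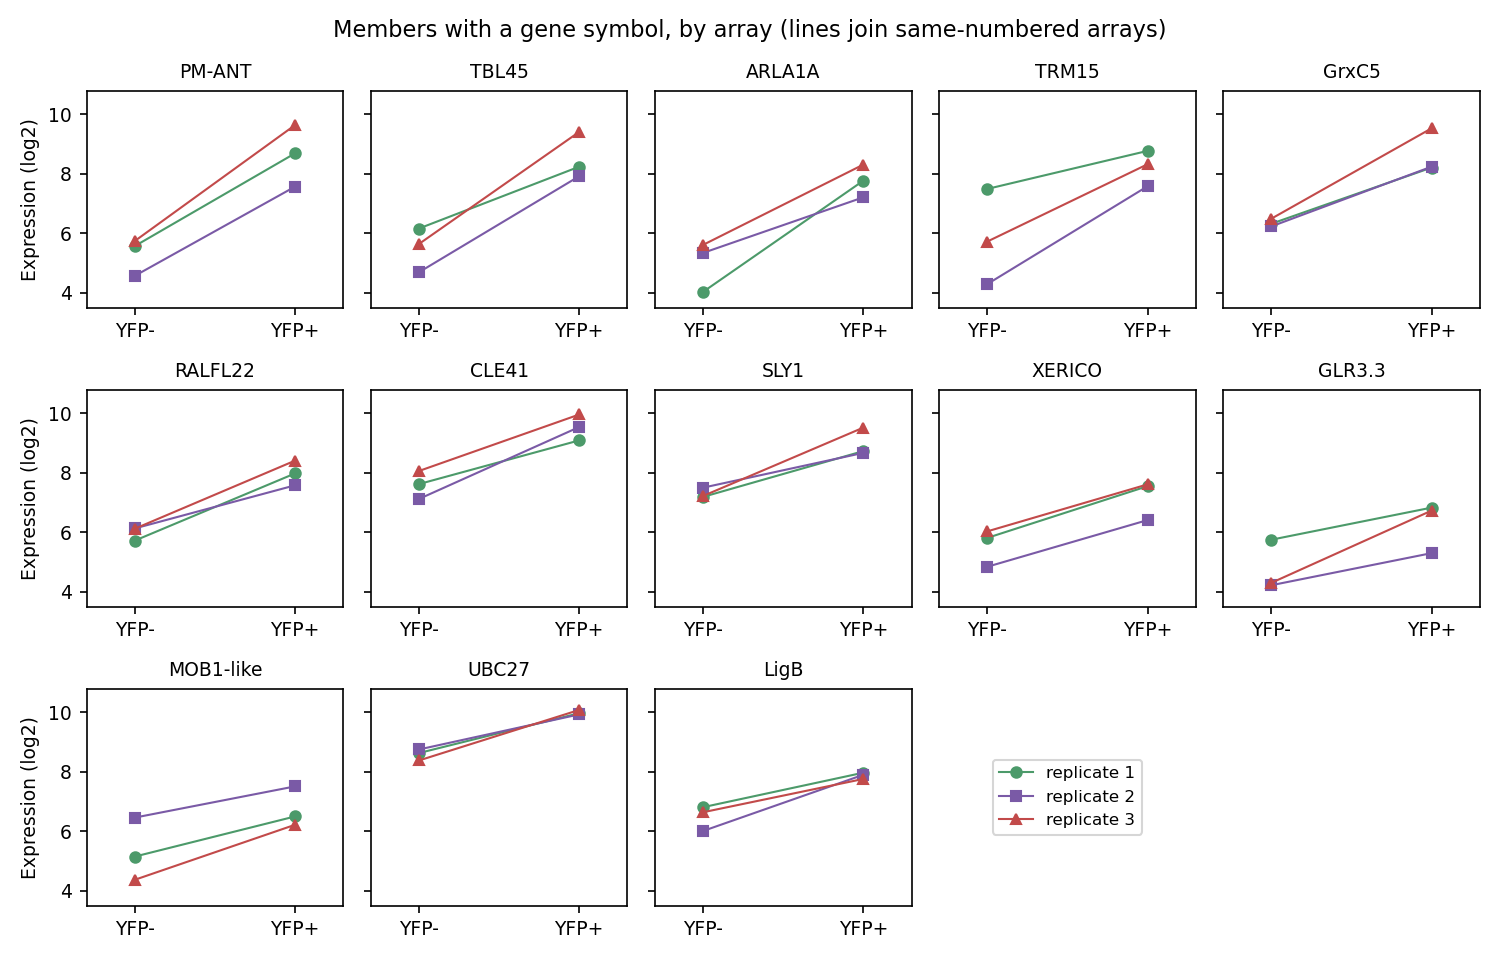
Expression on the log2 scale of the 13 members with a gene symbol in YFP-negative (YFP-) and YFP-positive (YFP+) arrays, with lines that join arrays of the same replicate number. Lines climb by 1.05 to 3.90 and run almost parallel in XERICO, while TRM15, MOB1-like, ARLA1A and GLR3.3 start from YFP-negative values that differ by over 1.5 between replicates.

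Genes of chromatin, transcription and RNA numbered 9, with mean differences from 1.14 to 2.56. AT5G02570, a histone H2B gene, stood at 6.03, 6.76 and 6.26 against 8.26, 8.51 and 9.97. Pair 3 gave 3.71 and pair 2 gave 1.74, one of the 5 widest ranges, and the high value was that of YFP-positive replicate 3. The CCCH zinc-finger gene AT3G21810 and AT5G47620, which encodes a protein with RNA-recognition motifs, had mean differences of 2.31 and 2.07. AT3G21810 stood at 6.90, 4.19 and 6.51 against 8.62, 6.96 and 8.96, and its YFP-negative replicate 2 value lay close to the floor. The PPR gene AT1G26900, of a family that acts on organelle RNA, the tRNA 2'-phosphotransferase gene AT5G23600 and AT4G32440, which encodes a tudor-like protein, had mean differences of 2.20, 1.93 and 1.33. Of the transcription factor genes, the ERF-type AT4G39780 had a mean difference of 1.72, the GARP-type AT4G37180 one of 1.29, and the bHLH-type AT2G22760 one of 1.14. The groups of AT4G37180 and AT2G22760 overlapped.

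Cell wall and secreted proteins numbered 8, with a median mean difference of 2.21 and a highest of 3.03. TBL45, of the family of polysaccharide O-acetyltransferases named after TRICHOME BIREFRINGENCE, stood at 6.16, 4.69 and 5.64 in YFP-negative cells and at 8.24, 7.92 and 9.41 in YFP-positive cells. The YFP-negative level was lowest in replicate 2 and the YFP-positive level highest in replicate 3, and the mean pair difference was 3.03 ± 0.86 (SD, n = 3). AT1G32860 and AT5G15870 encode beta-1,3-glucanases of glycoside hydrolase families 17 and 81, enzymes that cut the glucan callose. AT1G32860 stood at 6.14, 6.30 and 6.54 against 8.33, 8.85 and 9.38, with clear separation and a mean difference of 2.53 ± 0.32 (SD, n = 3). AT5G15870 stood at 7.24, 4.65 and 5.81 against 8.91, 7.21 and 7.24. Its YFP-positive replicate 2 value lay just below its YFP-negative replicate 1 value, so the groups overlapped.

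The aspartic protease gene AT5G19110 stood at 5.82, 4.81 and 5.58 against 7.58, 8.07 and 8.93, and its groups were well apart, with a mean difference of 2.79 ± 0.89 (SD, n = 3). A second aspartic protease gene, AT1G08210, had a mean difference of only 1.17 and overlapping groups. AT5G24620, of the thaumatin-like family, stood at 6.63, 5.02 and 6.98 against 8.76, 8.59 and 9.31. The low YFP-negative replicate 2 value gave its largest pair difference, 3.57. The hydroxyproline-rich glycoprotein gene AT4G16790 and AT3G06035, which encodes a GPI-anchored protein, had mean differences of 1.74 and 1.81.

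Lipid and membrane proteins numbered 10, with mean differences from 1.35 to 2.54. AT1G07380, a neutral ceramidase that cleaves the sphingolipid ceramide, stood at 5.37, 5.35 and 5.77 against 7.88, 7.54 and 8.70, and its groups were more than 1.7 apart. AT2G38550, of the TMEM14 family that includes fatty acid exporters of the chloroplast, had a mean difference of 2.49, and AT3G24840, a Sec14-like phosphatidylinositol transfer protein, one of 1.75. Both AT1G31300 and AT1G21790 encode proteins with a TLC lipid-sensing domain, with mean differences of 2.13 and 1.60. AT1G62790, of the lipid transfer protein family, stood at 8.66, 9.42 and 9.84 against 10.15, 10.74 and 11.59. It had the highest YFP-negative mean of the set, at percentile 97.2, with a difference of 1.53 ± 0.22 (SD, n = 3). The protein S-acyltransferase AT4G00840 and the lipases AT3G14360 and AT5G37710 had mean differences of 1.56, 1.65 and 1.35, and the groups of all 3 overlapped. The alpha/beta hydrolase gene AT4G39955 had a mean difference of 1.84.

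PM-ANT, an adenine nucleotide transporter of the plasma membrane, had the largest mean difference of the set. Its values were 5.57, 4.57 and 5.74 in YFP-negative cells and 8.69, 7.57 and 9.64 in YFP-positive cells. Every YFP-positive value was at least 1.8 above every YFP-negative value, and the mean pair difference of 3.34 ± 0.48 (SD, n = 3) was 10.1-fold, from 8.03-fold in the lowest pair to 14.9-fold in the highest. AT1G05780, with a domain like that of the vacuolar ATPase assembly factor VMA21 known from yeast, stood at 7.88, 7.26 and 9.19 against 10.43, 9.74 and 11.20. Replicate 3 was the highest in both populations, and the pair differences were an even 2.54, 2.48 and 2.01. AT4G17790, of the SNARE-associated Golgi protein family, had a mean difference of 1.38. The nucleotide-sugar transporter AT4G32272 stood at 6.77, 6.33 and 7.20 against 8.26, 7.35 and 8.47. Its groups were barely apart, and its mean difference was 1.26.

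AT1G71000, a DnaJ-domain co-chaperone, stood at 6.62, 7.20 and 8.65 against 10.53, 9.87 and 11.06. The YFP-negative values spread over 2.03 and the YFP-positive values over 1.19, and its pair 1 difference of 3.91 was the member value closest to the upper bound. AT3G03773, of the p23 family of HSP90 co-chaperones, had a mean difference of 1.85, and AT2G46140, listed as LEA27 of the late embryogenesis abundant proteins, one of 2.05. The small heat shock protein gene AT1G59860 stood at 8.24, 7.41 and 8.82 against 9.49, 8.64 and 9.89. Its pair differences of 1.25, 1.23 and 1.08 were close together, yet YFP-positive replicate 2 lay below YFP-negative replicate 3.

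The 6 members of metabolism and redox control had mean differences from 1.19 to 2.31. Groups did not overlap in any, where the share was 79.1% of all members and 4.96% of all genes, and the bounds favour this. GrxC5, a chloroplast glutaredoxin, stood at 6.32, 6.23 and 6.49 against 8.21, 8.24 and 9.53. Only YFP-positive replicate 3 stood off from its group, and the mean pair difference was 2.31 ± 0.63 (SD, n = 3). LigB, an extradiol dioxygenase, stood at 6.81, 6.01 and 6.64 against 7.97, 7.90 and 7.76, and here pair 2 gave the largest difference, 1.89. The acid phosphatase AT5G51260, the adenylate kinase AT5G50370, the N-terminal acetyltransferase AT5G16800 and the aldo-keto reductase AT1G60750 had mean differences of 2.24, 2.14, 1.81 and 1.19.

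Proteins tied to microtubules were TRM15, with a TON1-recruiting motif, and AT3G14170, of a family that acts on cortical microtubules. TRM15 stood at 7.49, 4.29 and 5.72 against 8.77, 7.58 and 8.32. Its YFP-negative values spread over 3.20 and its YFP-positive values over 1.2, so its pair differences went from 1.29 to 3.29. AT3G14170 stood at 5.18, 4.93 and 6.59 against 8.58, 6.60 and 8.04, and pair 1 gave 3.40 where the other pairs gave 1.67 and 1.46. Both were among the 5 members with the widest range of pair differences.

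**Figure D4:**
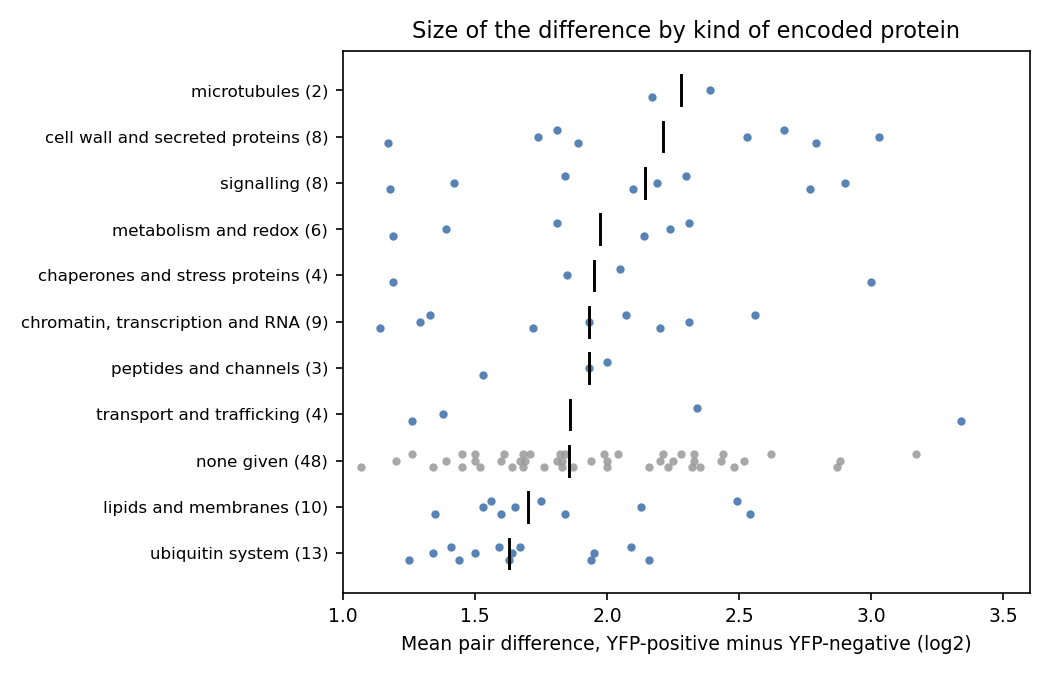
Mean pair difference on the log2 scale of each of the 115 members (points), grouped by the kind of protein encoded with the number of members in brackets, and the median of each group (bars). Group medians lie between 1.63 for the ubiquitin system and 2.28 for microtubules, and the points of all groups with over 3 members overlap.

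Several of the largest differences belonged to the 48 members with no assigned kind of protein. AT3G27050 stood at 5.38, 4.81 and 5.49 against 8.83, 7.51 and 8.85. Its mean pair difference of 3.17 ± 0.41 (SD, n = 3) was second to that of PM-ANT, and its groups were 2.02 apart. AT5G20580 stood at 5.66, 4.91 and 6.11 against 8.55, 7.54 and 9.23, replicate 2 being low and replicate 3 high in both populations. AT4G19060 stood at 4.99, 5.24 and 5.59 against 8.30, 7.71 and 8.44, with a mean pair difference of 2.87 ± 0.42 (SD, n = 3). The groups of all 3 genes were clear of each other.

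AT5G04080 was the brightest member in YFP-positive cells, at 10.53, 10.67 and 11.45 against 8.05, 7.08 and 9.65 in YFP-negative cells. Its YFP-negative values spread over 2.57, and its mean pair difference was 2.62 ± 0.91 (SD, n = 3). AT3G54040, of the PAR1 family named for a response to photoassimilate in tobacco, stood at 8.28, 8.17 and 9.06 against 10.52, 10.52 and 11.16. This member combined a high level, at percentile 99.4 in YFP-positive cells, with even pair differences of 2.24, 2.34 and 2.1. AT3G63050 stood at 8.44, 8.34 and 9.02 against 9.99, 10.85 and 10.92, and AT2G31560 at 8.27, 8.24 and 9.16 against 10.29, 9.93 and 10.73. Both were well separated, at mean differences of 1.99 and 1.76.

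**Figure D5:**
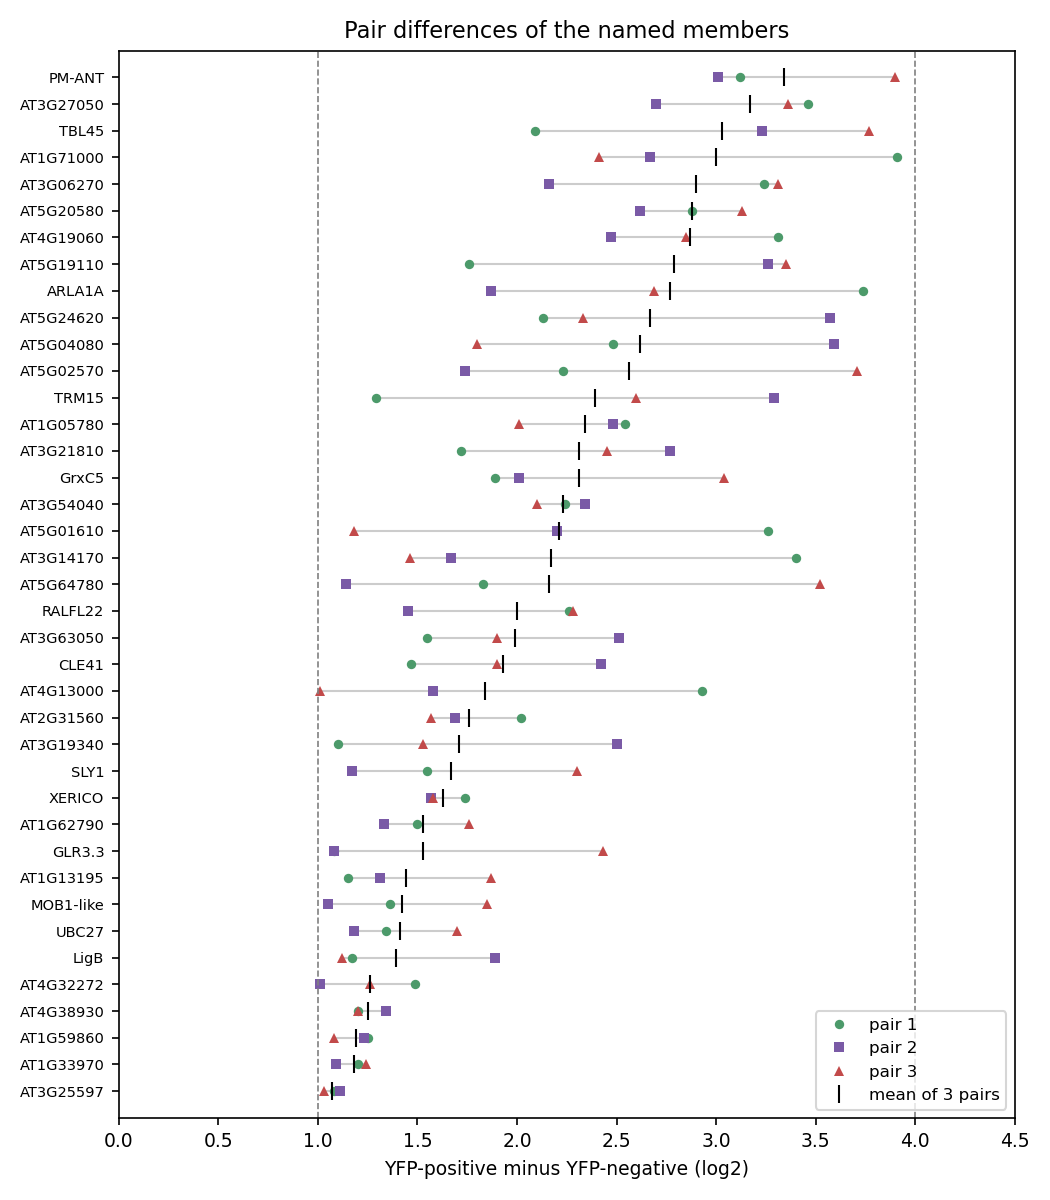
Differences between YFP-positive and YFP-negative arrays on the log2 scale in pairs 1 to 3 for the 39 members named by rule, with the mean of the 3 pairs as a black bar and the bounds of 1 and 4 as dashed lines. The range of the 3 pairs is widest in AT5G64780, at 2.38, and narrowest in AT3G25597, at 0.08.

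The evenness of the difference over pairs varied as much as its size. The range of the 3 pair differences had a median of 0.84 among the members and of 0.76 among all genes above the floor. It stayed below 0.5 in 31 members and exceeded 1.5 in 17. AT3G25597 was the most even, at 5.99, 5.67 and 6.95 against 7.07, 6.77 and 7.98. Its groups overlapped, while its pair differences of 1.08, 1.11 and 1.03 were almost equal. It was followed by AT4G38930, AT1G33970, XERICO and AT1G59860. At the other end AT5G64780 stood at 6.12, 5.65 and 4.32 against 7.94, 6.80 and 7.84. Its YFP-negative replicate 3 value was low, and pair 3 gave 3.52 where pair 2 gave 1.14. AT5G01610, of the DUF538 family, stood at 4.79, 4.59 and 6.22 against 8.05, 6.79 and 7.40, and here pair 1 gave 3.26 and pair 3 only 1.18.

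At the bounds the set parts genes with nearly the same values. Just inside the lower bound lay AT4G13000, AT4G32272 and AT3G25597, with smallest pair differences of 1.006, 1.014 and 1.029, and just outside it AT5G54660, AT1G64700 and AT3G55640, at 0.999, 0.998 and 0.996. Just inside the upper bound lay AT1G71000, PM-ANT and TBL45, with largest pair differences of 3.913, 3.895 and 3.770, and just outside it AT4G18530, AT4G12580 and AT3G14340, at 4.055, 4.225 and 4.228. At the floor, ARLA1A, AT3G19340 and AT3G21810 had lowest YFP-negative values of 4.026, 4.104 and 4.195, and AT1G45180, AT3G60370 and AT1G72500 missed it at 3.988, 3.936 and 3.934. AT3G19340 stood at 7.04, 4.10 and 5.51 against 8.14, 6.61 and 7.03, and its groups overlapped. Of the 4790 genes above the floor, 142 were at least 1 higher in every pair, and 24 of these reached 4 in some pair. The mirrored rule, with YFP-positive values above 4 and differences of -1 to -4 in every pair, was met by 89 genes.

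A few members could be read from more than 1 probe set. AT4G01595 had a second probe set of its own, which the choice of members had not used. It stood at 5.71, 5.38 and 5.23 against 6.92, 6.76 and 7.85. Its pair differences of 1.21, 1.39 and 2.63 lay near those of the probe set that stood for the gene, 1.29, 1.48 and 2.74. AT1G24851 belongs to a group of near-identical copies, and 3 probe sets with identical values, each shared by 4 genes, gave differences of 1.49, 1.79 and 0.77, so which copies carried its signal is uncertain. A probe set shared by AT2G20500 and its neighbour AT2G20495 gave 0.32, 1.31 and 1.89, against 1.83, 1.67 and 1.34 for AT2G20500 alone.

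No 2 members were direct neighbours in the order of protein-coding genes of the reference, in which 114 of the 115 could be placed. Of the 127 measured direct neighbours that are no members, 14 were at least 1 higher in every pair, or 11.0%, and 1 was at least 1 lower in every pair. Over all genes 3.45% were at least 1 higher in every pair. That share is over an unlike set, since it counts the members, which meet the condition by rule. The median difference of the 127 neighbours was 0.22. Among the 14, several had YFP-negative values below the floor, such as AT5G56440 beside PM-ANT, at 1.85, 1.31 and 2.15 against 6.81, 5.43 and 6.96, and AT4G19050 beside AT4G19060, at 2.94, 1.69 and 1.78 against 7.31, 6.15 and 7.95. QKY beside AT1G74730 had pair differences of 1.42, 2.37 and 2.49. Whether adjacent genes share transcripts or probe signal was not tested.

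None of the 115 members belonged to the marker lists of cell types and responses used beside them. Of the 183 names on these lists 27 were measured here, by a probe set with exactly 1 gene. In limma 2 of these 27 were called, RR16 and SIM, both set aside from the members by name and both higher. Of the sieve element list only OPS and CLE45 were measured, with pair differences of 0.29, 1.16 and 0.73 and of 2.20, 2.03 and 2.22. SEOR1 itself was not analysed here, so the sort was not checked by it. Of the 24 names on the mesophyll photosynthesis list 3 were measured, RCA, PSBW and PRK. Their mean differences were -0.71, -1.13 and -0.28, and none was called. PSBW stood at 8.08, 9.40 and 9.25 in YFP-negative cells and at 7.51, 8.0 and 7.82 in YFP-positive cells. It lay above the floor of 4 in every array, whereas PRK was at 2.28 or below in every array. The part of the listed cell types in the members' differences was not tested.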

How the data were processed

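Per the submitters' processing notes, the authors made the deposited values with RMA. Its version is not given in the sources used here, and the range of the deposited values fits a log2 scale. RNA was amplified before labelling, per the labels' protocols. Of 38408 probe sets, 16722 had exactly 1 gene, 759 several and 20927 were not named here. The highest-mean probe set stood for each of 16550 genes, and 16411 gene IDs matched the RefSeq table of TAIR10.1, whose coordinates and lengths were not used because the array table names no build. Protein and promoter descriptions that had been planned were not made, as no sequence table was used here.

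Differences were fitted with limma 3.58.1 in R 4.3.3, after tests on simulated data. The test was two-sided, p-values were adjusted by Benjamini and Hochberg's method over 16550 genes, and 0.05 was the threshold. Titles of the samples give the replicate numbers. Deviations from the group means correlated at 0.66, 0.61 and 0.49 within numbers 1 to 3. The rule for the members had already taken arrays of the same number as pairs. A fit with the replicate block is given beside the plain one. These correlations cannot tell a shared culture from shared processing of the arrays. Some genes had equal rounded values in both arrays of a number, such as SWEET11 at 4.11 and GUT2 at 1.98 in number 1. Genes with such ties were included in the correlations. The median difference of all genes was 0.0 in each pair. The source of these ties was not tested. Members and lists were chosen with earlier results of these data known.

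Members named with values in every array were the 12 with the largest mean pair difference, the 8 brightest in YFP-positive cells, the 3 nearest to each bound, the 5 with the narrowest and the 5 with the widest range of pair differences, and those with a gene symbol; members of a marker list were also to be named, and there were none. Proteins were not compared for identity. Other members were named after their values were seen. Alternatives were other bounds, scalings, a filter on dim genes, the lowest-mean probe set, and arrays left out. The number of arrays limits the precision.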

Additional observations from a re-analysis of the deposited data

Results flagged for a closer look

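Among the 20927 probe sets not named here, 96 met the same bounds as the members, a signal in data that no comparison above used. They made up 1.70% of the 5659 unnamed probe sets above the floor, where the members made up 2.40% of the named genes above it, and their median mean pair difference was 1.78. No gene is given for them.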

How the results depend on the processing

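The set grew or shrank with its own bounds. It held 74 genes with a floor of 5, 279 with a lower bound of 0.5 and 49 with one of 1.5. When both arrays of 1 number were left out, it held 147 to 231 (200 without replicate 1, 231 without replicate 2). The direction of these changes was fixed in advance. A looser bound or fewer pairs can only add genes, and a stricter bound can only remove them. Centring each array on its median gave 109 genes, of which 97 were members, and quantile normalization gave 119, of which 96 were. The count of members past limma's threshold, 7, was 36 with median centring, 30 with quantile normalization and 18 among genes with a mean above 4, where 384, 250 and 266 genes were called over all genes, and 0 to 3 when arrays were left out. Over all genes 179 were called, 142 higher and 37 lower. With the replicate block it was 90, with 82 higher and 8 lower, and with median centring it was 384, with 265 higher and 119 lower (69.0% higher against 79.3%). Among genes with a mean above 4 the higher share was 69.9%. Leaving out arrays gave 0 to 164 calls: 38 without YFP-negative replicate 3, 37 without YFP-positive replicate 3, 81 without YFP-positive replicate 1 and 94 without YFP-positive replicate 2. None was lower without YFP-negative replicate 3 or YFP-positive replicate 3, 3 were without YFP-positive replicate 2 and 13 without YFP-negative replicate 2. With 1 array left out the higher share ran from 56.8% (without YFP-positive replicate 1) to 100%. The count of calls was 0 without both arrays of replicate 1 or of replicate 3, where limma gave 1257 and 823 genes with an unadjusted p under 0.05. Without both arrays of replicate 2, where as many arrays were fitted, limma called 126 genes. The cause of these changes of a count was not tested. Over the 14 other settings of the fit the members' differences ran from 0.47 to 3.87, and 0 turned direction. No turn was possible with the block, the filter on dim genes or a pair left out. Those fits reuse pair differences that were at least 1 in every member. Over all 14 settings the named members kept direction and side of the threshold in 487 values, lost the threshold in 24 and passed it anew in 35. Among the named members the replicate block ended or gave the call in 5, all named above.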
